A study of Boehmeria nivea with 6 samples.

Results

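The genes described here are those of the fibre crop ramie (Boehmeria nivea, a perennial of the nettle family) whose expression differed between a cultivar and a wild accession in root and much less in leaf and stem. A gene was taken when its FPKM + 1 was at least 4-fold apart between the 2 root libraries and under 2-fold apart between the varieties both in leaf and in stem. FPKM give the fragments of a gene relative to its length and to the size of the library, and 1 was added to limit the weight of very low values. All 6 libraries were first brought to a common scale by median-of-ratios factors, and a gene had to reach 1 FPKM as deposited in at least 1 root library. By this rule 284 genes were found among 14634 compared in root and 20693 in the table, and they are called root-only genes below for the place of their difference, not of their expression. Of these, 154 were higher and 130 lower in the cultivar. The balance turned to 190 higher and 259 lower when each library was scaled to the same total. It also turned with 0.1 added in place of 1 (194 and 287). Limits of 2-fold in root (810 and 986) or 3-fold in leaf and stem (192 and 205) turned it as well. The rule uses the root values, so the size and direction of the root difference describe how the genes were chosen.

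RNA was sequenced from 3 organs (root, stem and leaf) of 30-day-old plants of QYZM, a wild tenacissima accession, and ZSZ1, a cultivar, with total RNA of each sample extracted and made into a library separately. The root comparison sets 1 ZSZ1 root library against 1 QYZM root library, and the labels name no treatment and do not say how many plants a library came from. With 1 library on each side, no difference below has a replicate check or a test, and library, plant and variety cannot be told apart. The table gives identifiers alone, without names or positions, so functions are not given and the organ labels could not be checked against known marker genes.

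Roots anchor a plant and take up water and mineral ions, and in perennials such as ramie the underground parts also store reserves and send up new shoots. Leaves carry out photosynthesis, and their RNA is dominated by the genes of that process. Ramie stems carry the bast fibres, long phloem cells with thick, cellulose-rich walls for which the crop is grown.

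The summed FPKM per library was 306497 to 433435, and the scaling factors were 0.601 to 1.21, with the lowest in ZSZ1 leaf. Fragment totals are not known, but among 483 genes below 0.2 FPKM in both roots the QYZM to ZSZ1 ratio peaked at 1.15, which, if whole fragments were counted, is the depth of ZSZ1 root relative to QYZM root. QYZM root was as close to the stem of its own variety as to the other root. Across the 14634 genes its log2(scaled FPKM + 1) correlated at r = 0.87 with QYZM stem and at r = 0.856 with ZSZ1 root, while ZSZ1 root and ZSZ1 stem correlated at r = 0.752. These correlations are descriptions across genes. Every result below rests on the QYZM root library, so none could be given without it, and its part in the results was not tested.

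Root held more variety differences of its own than leaf or stem by the same rule. At least 4-fold apart in root were 257 genes higher in ZSZ1 (1.76% of those compared) and 366 lower (2.5%). Of the higher genes, 154 (1.05% of those compared) met the limits in leaf and stem, and of the lower genes 130 (0.888%) did. The root-only genes were thus 1.94% of the genes compared and 45.6% of the 623 that passed the 4-fold limit there. The rule turned to leaf gave 161 leaf-only genes (1.16% of those compared in leaf), or 32.2% of 500 that passed the 4-fold limit. Turned to stem it gave 97 stem-only genes (0.669%), or 22.9% of 423. These shares depend in part on how alike the other organs are, and 82.8% of the genes compared in root were under 2-fold apart in leaf and stem, against 77.5% and 75.6% for the matching limits around leaf and stem. The root libraries were also less alike as a whole. Across the 14634 genes the varieties correlated at r = 0.856 in root, 0.924 in leaf and 0.917 in stem. With 1 library each, the part of this in the counts was not tested.

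The higher and the lower genes differed in how often they met those limits, by an amount that depended on the 1 added to FPKM. With 0.1 added, 194 of 518 higher and 287 of 956 lower genes were root-only, a smaller gap than the one given next for the main rule. Of the 257 genes higher in ZSZ1 root, 59.9% were root-only, 39 were also at least 2-fold higher in both leaf and stem, 40 in one of these, and 24 were at least 2-fold lower in leaf or stem. Of the 366 genes lower in ZSZ1 root, 35.5% were root-only, 101 were also at least 2-fold lower in both leaf and stem, 77 in one of them, and 58 were at least 2-fold higher in leaf or stem.

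**Figure D1:**
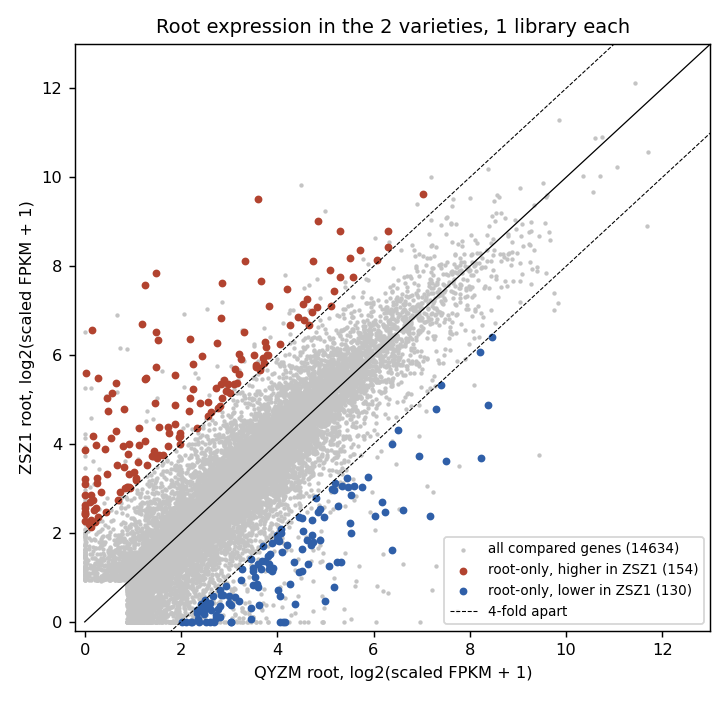
Each point is a gene, placed by log2(scaled FPKM + 1) in QYZM root (horizontal) and ZSZ1 root (vertical), with the solid line at equality and dashed lines 4-fold apart. The 154 higher (red) and 130 lower (blue) root-only genes lie outside the dashed lines by choice, and grey points outside them also differed at least 2-fold in leaf or stem.

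The root-only gene with the largest difference was close to absent outside ZSZ1 root. Bnt06G009989 stood at 104 FPKM in ZSZ1 root, against 0.141 FPKM in QYZM root. In leaf it was listed at 0 in QYZM and stood at 0.137 FPKM in ZSZ1, and in stem it stood at 0.166 FPKM in QYZM and 0.798 FPKM in ZSZ1. One library of the 6 was high, and the root difference was 6.41 on the log2(scaled FPKM + 1) scale, which understates differences of genes near 0.

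The next gene was a leaf gene in the wild accession and highest in root in the cultivar. Bnt02G002881 was at 2.17 FPKM in QYZM root, with 33.9 FPKM in the leaf and 3.69 FPKM in the stem of that variety. ZSZ1 root held 254 FPKM, with 43.4 FPKM in its leaf and 1.96 FPKM in its stem. The log2 root difference was 6.36, and the scaled leaf difference, 0.91, lay just within the 2-fold limit, with -0.57 in stem.

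The third and the fourth genes of this ranking showed both kinds of pattern. The third was at 1.68, 12.9 and 68.4 FPKM in root, stem and leaf of QYZM and at 212, 6.58 and 37.6 FPKM in the same organs of ZSZ1, a leaf gene in QYZM that was highest in root in ZSZ1. The fourth was highest in root in both varieties, at 13.5 FPKM in QYZM and 812 FPKM in ZSZ1, with no more than 3.31 FPKM in any leaf or stem library. The genes ranked 5 to 12 had log2 root differences of 4.73 to 5.58, with 44.9 to 309 FPKM in ZSZ1 root and 0.0187 to 10.9 FPKM in QYZM root. One of these 8 was high in another organ, at 145 FPKM in the leaf of QYZM and 94.8 FPKM in that of ZSZ1.

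On the lower side the differences were smaller and the other organs were more often high. Bnt07G011281 was at 172 FPKM in QYZM root, with 770 FPKM in the leaf and 112 FPKM in the stem of that variety. ZSZ1 root held 4.66 FPKM, with 517 FPKM in its leaf and 78.3 FPKM in its stem. ZSZ1 root was thus the one low library of the 6, with a log2 difference of -4.78. Bnt08G012373 was highest in root in QYZM, at 99.8 FPKM against 8.06 FPKM in leaf and 22.2 FPKM in stem. In ZSZ1 it stood at 2.30 FPKM in root, with 2.54 FPKM in leaf and 10.3 FPKM in stem, so that root was its lowest organ (log2 difference -4.76). Its leaf and stem differences, -0.93 and -0.93, lay just within the 2-fold limit and had the same sign as in root.

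The third and the fourth genes on this side were abundant outside root. The third was at 363 FPKM in the root of QYZM and 13.1 FPKM in that of ZSZ1, with 266 and 446 FPKM in the stems of QYZM and ZSZ1 and 4.27 and 3.68 FPKM in their leaves, so that it was shared by root and stem in QYZM and was mainly a stem gene in ZSZ1. The fourth was a leaf gene, at 3071 FPKM in the leaf of QYZM and 1165 FPKM in that of ZSZ1, 297 and 362 FPKM in stem, and 37.0 FPKM in QYZM root against 0.416 FPKM in ZSZ1 root. Ranks 5 to 12 had log2 root differences of -4.39 to -3.90, with 18.8 to 220.0 FPKM in QYZM root and between a listed 0 and 12.5 FPKM in ZSZ1 root.

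**Figure D2:**
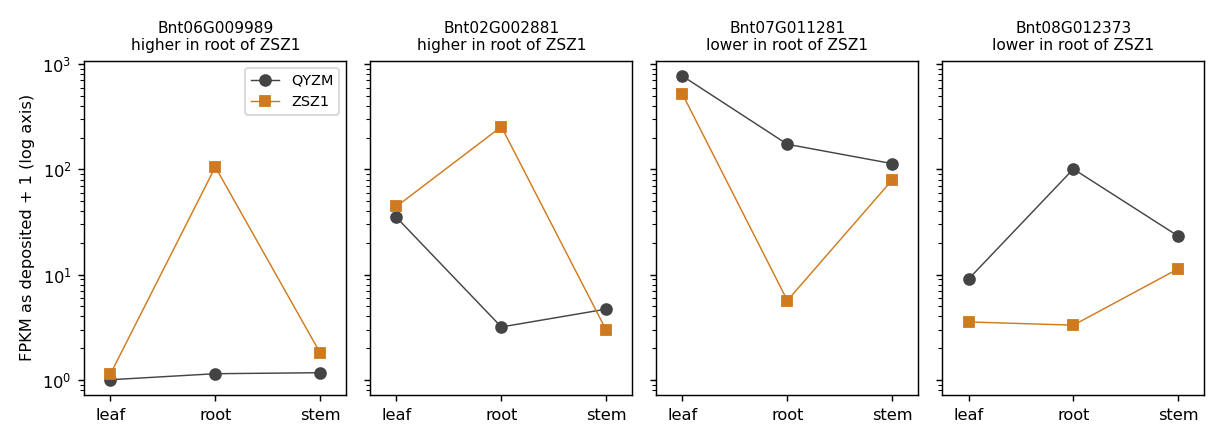
FPKM as deposited + 1 (log axis) in leaf, root and stem for the 2 root-only genes with the largest difference in each direction, with circles for QYZM and squares for ZSZ1, 1 library per point. The varieties lie farther apart in root than in leaf or stem in each panel. In root Bnt06G009989 is at 0.141 and 104 FPKM and Bnt07G011281 at 172 and 4.66 FPKM.

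Most root-only genes differed less than these. The median log2 root difference was 2.54 for the higher genes, 45 of which were at least 8-fold and 23 at least 16-fold apart. It was -2.50 for the lower genes, with 34 at least 8-fold and 9 at least 16-fold apart. Over all 14634 compared genes the median was -0.02. Just inside the 4-fold limit was a gene at 40.6 FPKM in the QYZM and 153 FPKM in the ZSZ1 root library (4.01-fold on scaled FPKM + 1), and just outside it was one at 0.261 and 4.27 FPKM (3.99-fold). On the lower side these were a gene at 19.3 and 3.58 FPKM (4.02-fold) and one at 7.82 and 0.966 FPKM (3.99-fold).

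The higher genes were moderately expressed in ZSZ1 root and had lower medians in the other 5 libraries. Their median was 34.0 FPKM in ZSZ1 root (lowest 3.77, highest 880.4), and 35 of the 154 reached 100 FPKM there. In the other libraries the median was between 2.91 FPKM in ZSZ1 leaf and 3.62 FPKM in QYZM leaf, with 3.02 FPKM in QYZM root. A minority was not low there, since 48 to 54 of the 154 reached 10 FPKM in each leaf and stem library, 41 did so in QYZM root, and 10 reached 100 FPKM in QYZM leaf (highest 651). A total of 38 of the 154 (24.7%) were below 1 FPKM in all 4 leaf and stem libraries, against 5.16% of the 12112 compared genes that were under 2-fold apart in leaf and stem, a set that includes the root-only genes. Together the higher genes held 3.45% of the summed FPKM of ZSZ1 root and 0.433% of that of QYZM root.

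Most of the lower genes were also expressed in leaf and stem, where 95 to 116 of the 130 reached 1 FPKM per library. Their median was 18.2 FPKM in the QYZM and 1.51 FPKM in the ZSZ1 root library, against 17.1 and 15.4 FPKM in the stems and 8.60 and 4.55 FPKM in the leaves of QYZM and ZSZ1. In ZSZ1 root 10 of the 130 reached 10 FPKM, against 75 in ZSZ1 stem and 91 in QYZM root. Of the 130, 10 (7.69%) were below 1 FPKM in all leaf and stem libraries. Of the summed FPKM they held 1.42% in the root of QYZM and 0.165% in that of ZSZ1, and 8.97% and 9.06% in the leaves of QYZM and ZSZ1. The gene with the highest leaf level of all members took part of these leaf shares, at 13029 and 14100 FPKM in the leaves of QYZM and ZSZ1, with 86.2 and 6.12 FPKM in their roots. The member with the highest stem level was also on this side, at 4742 and 6513 FPKM in the stems of QYZM and ZSZ1 and at 220.0 and 12.5 FPKM in their roots.

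**Figure D3:**
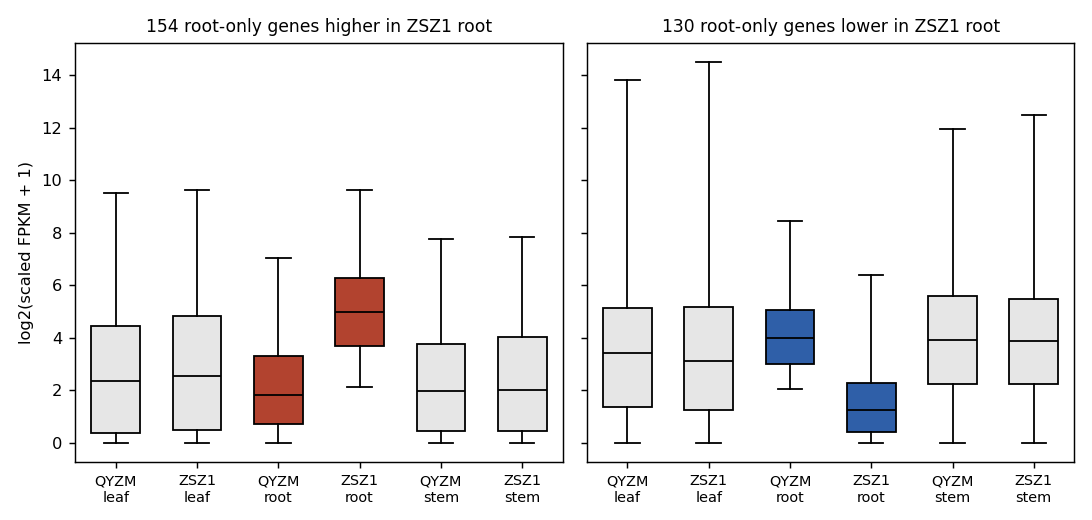
Log2(scaled FPKM + 1) of the 154 higher and 130 lower root-only genes in each of the 6 libraries, with boxes from the lower to the upper quartile, a line at the median and whiskers to the lowest and highest gene, and the root libraries in colour. Leaf and stem boxes match between varieties by the rule. The ZSZ1 root median is the highest of the 6 on the left and the lowest on the right, and its box overlaps those of leaf and stem on both sides.

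In the cultivar, the higher genes were mostly highest in root and the lower genes mostly in stem or leaf. The organ with the highest scaled FPKM in ZSZ1 was root for 132 of the 154 higher genes (85.7%), leaf for 19 and stem for 3. In QYZM, whose root values the rule made low, leaf was highest for 75 of them, root for 39 and stem for 33, and 7 were listed at 0 in all QYZM organs. The most frequent pair was leaf in QYZM with root in ZSZ1, in 56 genes, followed by root in both varieties in 39 and stem in QYZM with root in ZSZ1 in 30. The lead of leaf in QYZM depended on the scale, and on unscaled values leaf was highest for 52, root for 46 and stem for 43 of 149 genes. Among the 12112 genes under 2-fold apart in leaf and stem, root was highest for 38.0% in QYZM and 39.3% in ZSZ1, and leaf in QYZM was paired with root in ZSZ1 for 6.74%.

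For the 130 lower genes the organ in ZSZ1 was stem for 72, leaf for 47 and root for 6, and 5 were listed at 0 in all ZSZ1 organs. Root was the lowest ZSZ1 organ for 96 of them (73.8%), against 30.6% of the 12112 genes. The rule made the ZSZ1 root values of these genes low, so nothing is read from that contrast. In QYZM, where the rule made the root values high, root was highest for 56 (43.1%), leaf for 40 and stem for 34. The most frequent pairs were leaf in both varieties in 38 genes, root in QYZM with stem in ZSZ1 in 37 and stem in both in 33.

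The share of genes that peaked in the organ of their difference was not the same on both sides in root. In the variety with the higher root value, 85.7% of the genes higher in ZSZ1 were highest in root, against 43.1% of the genes higher in QYZM. For leaf-only genes these shares were 76.2% of 84 and 83.1% of 77, and for stem-only genes 87.2% of 39 and 70.7% of 58. The higher value enters the rule in all 3 organs, so such a peak is favoured throughout, and the shares are given as descriptions.

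**Figure D4:**
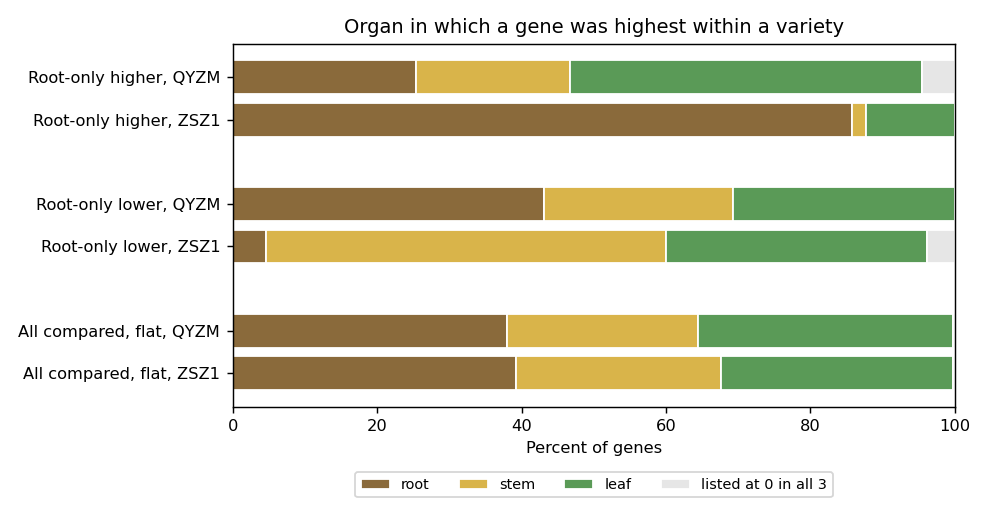
Percent of genes with their highest scaled FPKM in root, stem or leaf within QYZM and within ZSZ1, for the 154 higher and 130 lower root-only genes and for all 12112 compared genes under 2-fold apart between varieties in leaf and stem (flat). Root takes 85.7% of the higher and 4.62% of the lower genes in ZSZ1, against 39.3% of the flat genes in that variety. The rule favours both, since it uses the ZSZ1 root value.

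The rule held leaf and stem under 2-fold apart between the varieties, so they served as a level from which either root could depart. With 1 added, genes near 0 in leaf and stem meet this limit largely through the added 1. Below 1 FPKM in all 4 leaf and stem libraries were 38 of the 154 higher and 10 of the 130 lower genes. A root library was said to depart when its log2(scaled FPKM + 1) was at least 1 above or below the mean of leaf and stem of its own variety. The rule requires a gap between the roots, and where leaf and stem are well expressed it does not fix which one departs. Where they are near 0 it does, since with 1 added no root can stand 1 below them, which held in at least 1 variety for 54 of the 154 higher and 18 of the 130 lower genes. For the higher genes it was mainly ZSZ1 root. In 93 of 154 (60.4%) ZSZ1 root stood above leaf and stem while QYZM root was near them, with medians of 31.0 FPKM in ZSZ1 root and 1.34 to 2.22 FPKM in the other 5 libraries. In 18 both roots were above, with medians of 8.47 FPKM (QYZM) and 65.9 FPKM (ZSZ1). In 22 (14.3%) QYZM root was below leaf and stem while ZSZ1 root was near them, with medians of 5.53 and 30.4 FPKM. Among the 100 higher genes with room below, a restriction added after seeing the data, ZSZ1 root departed alone in 50 and QYZM root in 22. In 17 the roots departed in opposite directions, in 2 both were below and in 2 neither departed. The order was the same among all 12112 genes under 2-fold apart in leaf and stem. Of these, 5.84% had ZSZ1 root alone above and 2.10% had QYZM root alone below.

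For the lower genes, too, ZSZ1 root was the more frequent one to depart alone. In 58 of 130 (44.6%) ZSZ1 root was below leaf and stem while QYZM root was near them, with medians of 1.33 FPKM in ZSZ1 root against 15.2 FPKM in QYZM root and 17.0 FPKM in QYZM stem. In 30 (23.1%) QYZM root was above and ZSZ1 root near, with medians of 14.9 FPKM in QYZM root, 0.843 FPKM in ZSZ1 root and 0.385 FPKM in QYZM leaf. The order turned with a pseudocount of 5, which gave 14 genes with ZSZ1 root alone and 15 with QYZM root alone, and at 8-fold in root, which gave 7 and 9. Among the 112 lower genes with room below, ZSZ1 root departed alone in 58 and QYZM root in 14. In 3 both were above, in 16 QYZM root was above and ZSZ1 root below, and in 23 both were below. ZSZ1 root also departed alone more often than QYZM root among all 12112 genes, in 12.6% against 6.41%. In the directions of the lower genes, ZSZ1 root alone was below in 6.77% of the 12112 and QYZM root alone above in 4.31%.

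The 23 lower genes with both roots below the shoot organs were leaf genes for the most part. In QYZM leaf was the highest organ for 18 of them, at 69.4 to 13029 FPKM, and stem for 5, at 57.4 to 4742 FPKM in QYZM stem. Over all 23 the medians in QYZM and ZSZ1 were 427 and 243 FPKM in leaf, 156 and 142 FPKM in stem, and 19.5 and 1.71 FPKM in root. The root level was a median of 2.16% of the leaf level in QYZM and 0.285% in ZSZ1, both on scaled values. QYZM root ranged from 5.58 to 220.0 FPKM over these genes and ZSZ1 root from a listed 0 to 12.5 FPKM.

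**Figure D5:**
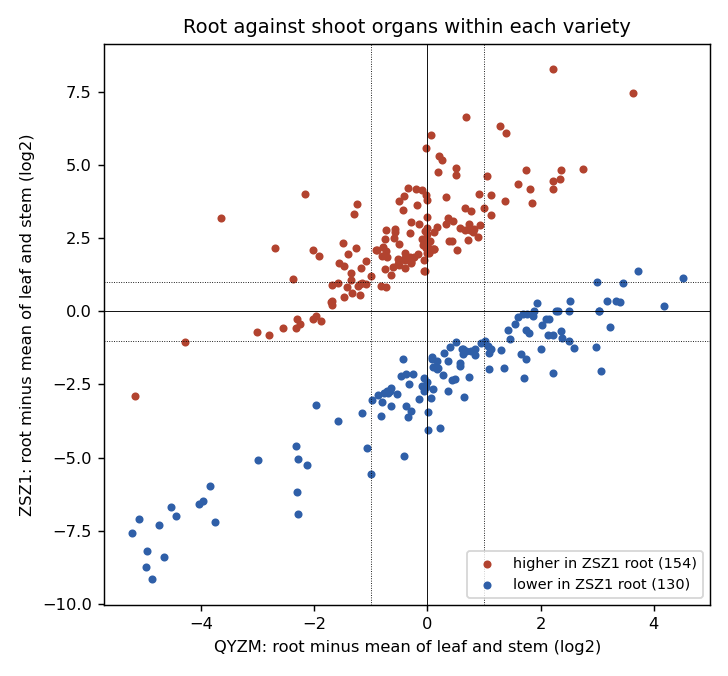
Each point is a root-only gene, placed by the log2 difference between root and the mean of leaf and stem within QYZM (horizontal) and within ZSZ1 (vertical), with dotted lines at 1 and -1. The 154 higher genes (red) cluster above the upper dotted line and near 0 on the horizontal axis, and the 130 lower genes (blue) run from genes near 0 in ZSZ1 to a group far below 0 in both varieties.

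Genes enriched in root by a 4-fold rule, at least 4 times FPKM + 1 of both other organs on the scaled values, were counted within each variety. Among all 12112 genes under 2-fold apart in leaf and stem, 0.809% were root-enriched in QYZM and 1.68% in ZSZ1. Of the 154 higher genes 76 were root-enriched in ZSZ1 and 3 in QYZM, and these 3 were among the 76. Since the rule makes the ZSZ1 root value high, nothing is read from the 76. Of the 130 lower genes 13 were root-enriched in QYZM and 0 in ZSZ1. Conversely, root was at least 4-fold below both leaf and stem in ZSZ1 for 45 of the lower genes, against 1.96% of the 12112 genes. In QYZM it was so for 12 of them (9.23%), all among the 45, against 0.908% of the 12112 genes. For the lower genes the rule makes the QYZM root value high and the ZSZ1 root value low. Nothing is therefore read from the 13, the 0 or the 45. The 4-fold limit also asks members for a higher root level than the 1 FPKM asked of all compared genes. For that reason nothing is read from the 12 either.

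The organ bias of the genes was also read from leaf and stem alone, which the root difference does not use but the rule limits between varieties. A gene was called stem-over-leaf or leaf-over-stem when the organs were at least 4-fold apart in that direction in both varieties. Genes below 1 FPKM in all 4 leaf and stem libraries could not have such a bias. These were 24.7% of the higher and 7.69% of the lower genes, against 5.16% of the 12112. The 4-fold limit also asks for a higher root level than the 1 FPKM asked of all compared genes, so the shares are descriptions. Stem-over-leaf genes made up 25 of the 130 lower genes (19.2%) and 4 of the 154 higher genes (2.60%), against 1.86% of the 12112 genes. Leaf-over-stem genes made up 23 of the lower genes (17.7%) and 13 of the higher genes (8.44%), against 4.62%. The 25 stem-over-leaf lower genes had a median root level of 118% of the stem level in QYZM and 5.27% in ZSZ1, with median root values of 34.7 and 2.07 FPKM.

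The lower root level of stem genes in ZSZ1 was not limited to the members. The 225 stem-over-leaf genes among the 12112 include 25 lower and 4 higher members, and no median was taken without them. Over all 225 the median log2 root difference was -0.74 (quartiles -1.38 and 0.06), and 28.4% were higher in ZSZ1 root. Their root level was a median of 49.9% of the stem level in QYZM and 23.7% in ZSZ1. How many genes have such a bias depends on the scaling of leaf against stem, and on unscaled values 414 genes were stem-over-leaf (median log2 root difference -0.66) and 301 leaf-over-stem. For the 560 leaf-over-stem genes the median was -0.12 and 42.1% were higher in ZSZ1, but it was 0.01 after quantile normalization, so no direction is given. The 11327 genes without such a bias had a median of 0.01 and 50.7% were higher in ZSZ1 root. In a whole organ, the number of cells of a type and the RNA per cell cannot be told apart. A low level in ZSZ1 root and a high level in QYZM root cannot be told apart either, with 1 library each. Across all compared genes QYZM root was close to QYZM stem (r = 0.87), and its part in this difference was not tested.

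Small differences in leaf and stem had no common sign among the higher genes. Of these, 55.2% were above 0 in leaf and 48.1% in stem for ZSZ1 minus QYZM, against 54.5% and 53.0% of the 12112 genes. Of the lower genes, 33.1% were above 0 in leaf and 50.8% in stem, with medians of -0.12 and 0.01 on the log2 scale.

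Some members were listed at 0 in a root library. In QYZM root 10 of the higher genes were, at 4.26 to 15.1 FPKM in ZSZ1 root, and 5 of these were listed at 0 in all leaf and stem libraries too. In ZSZ1 root 13 of the lower genes were, at 3.72 to 20.4 FPKM in QYZM root, and 3 of these had at least 1 FPKM in all 4 leaf and stem libraries. The submitters name Bowtie2 and RSEM without their roles, and depth per library is unknown, so a listed 0 is not read as absence.

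The members were spread over all 15 identifier prefixes, making up 1.39% to 2.67% of the compared genes of a prefix. Among 434 compared genes whose number directly precedes or follows a member's on the same prefix, 18 (4.15%) were members themselves, against 1.94% of all compared genes. These formed 9 pairs, 6 of them of higher genes, 1 of lower genes and 2 mixed, and no run was longer than 2. In 1 mixed pair the first gene stood at 54.4 FPKM in the QYZM and 6.93 FPKM in the ZSZ1 root library and the second at 5.36 and 69.1 FPKM. The order of identifiers is not known to be that of the genome, and reads of near-identical neighbours may have been shared in the authors' counting.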

How the data were processed

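The authors deposited FPKM values, 1 column per library for 6 libraries and 20693 genes. Bowtie2 and RSEM stand in the submitters' processing notes, with neither version nor role. Genome build, gene models and strand handling: not given in the sources used here. Depth per library is unknown beyond the ratio given, and no interval or floor that needs it was computed.

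Median-of-ratios factors were computed over the 14813 genes above 0 in all 6 libraries, with pandas 2.3.3 and numpy 2.4.6 under Python 3.11.15 (figures with matplotlib 3.10.9, exact binomial intervals with scipy 1.17.1). Differences are log2(scaled FPKM + 1), ZSZ1 minus QYZM; levels are FPKM as deposited. Genes with at least 1 FPKM in either root library were compared. With 1 library per group there is no test and no SD. The rule was tried on simulated data without noise between libraries, which checks the code and not how often the rule errs. Genes named are the 2 with the largest difference in each direction; others are given by rank or count. Planned lists by gene product needed names and were not run. The members, lists and classes were chosen with earlier results of these data known. Alternatives were other scalings, pseudocounts, filters and fold limits.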

Additional observations from a re-analysis of the deposited data

Results flagged for a closer look

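Root departed at least 2-fold from the mean of leaf and stem in opposite directions in the 2 varieties for 17 of the 154 higher genes and for 16 of the 130 lower genes. Among all 12112 compared genes under 2-fold apart in leaf and stem, 19 and 21 did so in the same directions (0.157% and 0.173%), nearly all of them members, because the rule needs a gap between the roots. The 17 had medians of 18.9 FPKM in QYZM leaf, 2.10 FPKM in the QYZM and 38.1 FPKM in the ZSZ1 root library. The 16 had medians of 26.8 FPKM in the QYZM and 2.04 FPKM in the ZSZ1 root library, with 14.9 FPKM in QYZM stem. Among the genes named, Bnt02G002881 stood at -2.17 in QYZM and 4.02 in ZSZ1 for root minus the mean of leaf and stem on the log2 scale, and Bnt08G012373 at 2.59 in QYZM and -1.25 in ZSZ1. They are listed because the organ difference ran in opposite directions in the varieties, which was not tested, since each organ of each variety had 1 library.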

How the results depend on the processing

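No paired analysis was possible because each group had 1 library. No gene of the higher or the lower list was in the opposite list under any of the 13 alternatives. The fold limit in root largely fixed that result. Membership itself changed. Of the 154 higher and 130 lower genes, 135 and 99 were still root-only on unscaled values. With median-of-ratios factors per organ 150 and 128 were, and after quantile normalization 145 and 117. A pseudocount of 0.1 kept 114 and 101, and a pseudocount of 5 kept 64 and 36. The 4 named genes kept their direction in root under the 6 alternatives of scaling and pseudocount (log2 4.28 to 8.77 for Bnt06G009989, 5.10 to 6.91 for Bnt02G002881, -5.05 to -4.00 for Bnt07G011281 and -5.25 to -3.63 for Bnt08G012373), which the naming rule largely fixed. Of the 4, 3 met the whole rule on unscaled values, 2 with a total of 1000000 per library, 2 with a pseudocount of 0.1 and 1 with a leaf and stem limit of 1.5. The 8 results listed with alternatives are the counts in root, the root-only counts and the shares of genes highest in root or with 1 root departing alone. Those that moved by more than 1.5 times (counts) or outside their 95% exact binomial interval (percents, over genes, which are not independent) are given here. Apart from alternatives that change a threshold, for each of them the cause was not tested.

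On unscaled values, 53.6% of the lower genes were highest in root in QYZM and 34.3% had QYZM root alone departing. A total of 1000000 per library gave 405 higher and 752 lower genes in root and 259 lower root-only genes. The higher genes were then 42.3% of the root-only genes, against 54.2% with median-of-ratios factors, and 128 higher and 115 lower genes were shared with the lists reported. A pseudocount of 0.1 gave 518 higher and 956 lower genes in root and 287 lower root-only genes, with 50.0% of the higher genes having ZSZ1 root alone departing and 33.1% of the lower genes highest in root in QYZM. A pseudocount of 5 gave 120 higher and 107 lower genes in root and 81 and 42 root-only genes, with 93.8% of the higher genes highest in root in ZSZ1 and 35.7% of the lower genes having QYZM root alone departing. A root threshold of 2-fold gave 1207 higher and 1667 lower genes and 810 and 986 root-only genes, with 76.7% of the higher genes highest in root in ZSZ1 and 42.1% having ZSZ1 root alone departing. A root threshold of 8-fold gave 78 and 123 genes and 45 and 34 root-only genes, with 100% of the higher genes highest in root in ZSZ1 and 58.8% of the lower genes highest in root in QYZM. A leaf and stem limit of 1.5-fold left 96 higher and 63 lower root-only genes, and a limit of 3-fold gave 205 lower ones. Counting genes with room below leaf and stem, a choice made after the data were seen, gave 50.0% of the higher genes with ZSZ1 root alone departing and 12.5% of the lower genes with QYZM root alone departing.

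Low members are limited by unknown depth: 146 of the 154 higher and 123 of the 130 lower genes reached 5 FPKM in a root library. The median log2 root difference of stem-over-leaf genes was -0.74 to -0.50 under the 5 scalings, their number 225 to 539, and the lower members among them 23 to 60. Leaf-over-stem genes numbered 301 to 560, with 15 to 33 lower members. Leaf-only genes numbered 113 to 178 and stem-only genes 97 to 190, against 284 to 449 root-only genes.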
